A study of Mus musculus with 7 samples.

Results

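The 9 genes described here belong to the Hippo pathway and its transcriptional output: the co-activators Yap1 and Wwtr1 (the gene of TAZ), the DNA-binding factors Tead1 and Tead4, the target genes Ccn1, Ccn2 and Ankrd1, and the feedback regulators Amotl2 and Lats2. Their accessible regions were followed in mouse pancreatic epithelium. A peak belonged to a gene when the gene's annotated span was the nearest protein-coding span to the peak's summit, within 50 kb. By this rule the 9 genes, of 21631 protein-coding genes on the 19 autosomes and X, had 283 of 223972 merged regions, each a run of overlapping peaks from any of the lists. The untreated list held 203 of their peaks, the day 1 list 225, the day 7 list 199 and the day 28 list 196. Since 1 merged region can hold several peaks of a list, the same lists held 170, 204, 168 and 156 of the merged regions, and counts below say which of these they are.

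Open chromatin was mapped by ATAC-seq, which uses the transposase Tn5 to cut and tag the DNA that nucleosomes and other proteins leave exposed. Epithelial cells were purified from the digested pancreas of C57BL/6J wild-type mice, either untreated or 1, 7 or 28 days after caerulein, a cholecystokinin analogue that causes acute pancreatitis. Each of these 4 groups is 1 library with 1 peak list, so there is no replicate check, no test was possible and every statement compares libraries. The sources used here do not give the number of mice behind a library or the way the epithelium was purified, and a further 3 libraries from DCLK1-positive cells were not analysed here.

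In the Hippo pathway the kinases Lats1 and Lats2 phosphorylate the co-activators YAP and TAZ and keep them out of the nucleus. When the kinases are inactive, YAP and TAZ enter the nucleus, bind TEAD factors on DNA and switch on genes such as Ccn1, Ccn2 and Ankrd1, and also Amotl2 and Lats2, whose products restrain YAP in turn. In the mouse pancreas YAP is known to be low in resting acinar cells and present in duct cells, and to accumulate in acinar cells that take on duct features after injury.

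The TEAD factors recognise GGAATG, or CATTCC on the other strand. Both orientations were searched in RefSeq promoter windows of GRCm38.p6, which run from 250 bases before to 50 after an annotated start. Windows were found for 6 members, namely Yap1, Wwtr1, Ccn1, Ankrd1, Amotl2 and Lats2. The motif was in 7 of their 8 windows and in at least 1 window of 6 of the 6 genes, against 14.7% of all 32851 windows and 16.6% of all 27025 genes. The 2 Wwtr1 windows overlap and share the same site, so the count by gene is the one without repeats. The AP-1 type motif TGANTCA, searched in the same way, was in a window of 0 of these 6 genes, against 8.97% of all genes with a window, and 6 genes are too few to read anything from that. The stretches below are shown because they place the motif inside the regions described later. They are printed 5′ to 3′ on the strand of the gene, and capitals mark the motif.
Yap1 (chr9:8004705-8004764, minus strand): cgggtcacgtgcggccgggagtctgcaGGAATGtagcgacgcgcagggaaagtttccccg
Wwtr1 (chr3:57576014-57576073, minus strand): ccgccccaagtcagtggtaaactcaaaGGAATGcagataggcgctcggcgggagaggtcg
Ccn1 (chr3:145650056-145650115, minus strand): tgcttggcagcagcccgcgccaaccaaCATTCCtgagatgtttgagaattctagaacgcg
Amotl2 (chr9:102717712-102717771, plus strand): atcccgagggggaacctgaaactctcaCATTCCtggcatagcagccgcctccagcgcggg
Lats2 (chr14:57746102-57746131, minus strand): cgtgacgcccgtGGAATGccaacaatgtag

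The promoter of Ankrd1 is shown in full up to the start, because it had no untreated peak and had one in every later list, and it holds the motif 2 times.
Ankrd1 (chr19:36119845-36120094, minus strand): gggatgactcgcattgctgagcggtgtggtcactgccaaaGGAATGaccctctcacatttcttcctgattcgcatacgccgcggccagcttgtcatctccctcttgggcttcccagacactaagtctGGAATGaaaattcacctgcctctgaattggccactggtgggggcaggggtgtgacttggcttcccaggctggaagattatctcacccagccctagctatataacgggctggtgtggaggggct

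Counted from the annotated start, the motif began at position -141 in Yap1, -136 in the first Wwtr1 window, -103 in Ccn1, -65 in Amotl2, +5 in Lats2, and -210 and -123 in Ankrd1. In Yap1, Wwtr1, Ccn1, Amotl2 and Lats2 it lay inside a peak in all 4 lists. In Ankrd1 both copies lay inside the peaks of days 1, 7 and 28 and in no untreated peak. The summit, the position of highest pileup in a peak, was 42, 79 and 12 bases from the first Ankrd1 copy and 129, 8 and 75 bases from the second at days 1, 7 and 28. Over the 4 lists the distance ran from 25 to 43 bases in Yap1, from 29 to 35 in Amotl2, from 103 to 119 in Wwtr1, from 90 to 167 in Ccn1 and from 25 to 401 in Lats2, where the largest was at day 28. A second Lats2 window, at chr14:57734369-57734668, held neither motif and overlapped no peak in any list. A match is a stretch of letters and does not show that a factor was bound.

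The 4 lists were not equally sensitive. The pileup is the number of sequenced fragments or reads, as the authors' peak caller stacked them, that cover a position, and its background estimated from the files was 5.07 in the untreated library and 5.35, 2.72 and 2.52 at days 1, 7 and 28. Over the 59902 regions that all 4 lists share, the median fold enrichment, which is the authors' ratio of pileup to background at the summit, was 8.40 in the untreated list and 17.65, 16.1 and 12.5 in the later ones. Relative enrichment was taken as fold minus 1, divided by the list's median of fold minus 1 in those regions, which was 7.40, 16.65, 15.1 and 11.5. On this scale the untreated list held peaks down to 0.199 and the day 1 list down to 0.0819. Counts of peaks at day 1 are therefore also given above a common floor for the genes and gene lists, which removes from every list the peaks under 0.199. For levels, the measure used is a region's percentile of fold enrichment among those 59902 shared regions within its own list.

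A later peak that shared not even 1 bp with any untreated peak was called gained, and an untreated peak that shared none with the later list was called lost. At day 1, 96 of the 225 peaks at the 9 genes were gained, a share of 42.7% with an exact binomial 95% interval from 36.1% to 49.4%, against 49.9% over all genes. Of their 203 untreated peaks 60 were lost, or 29.6% (23.4% to 36.35%), against 37.1% over all genes. At day 7 the gained peaks numbered 52 of 199 and the lost ones 51, against 33.9% and 31.8% over all genes. At day 28 the gained peaks numbered 47 of 196, or 24.0% (18.2% to 30.6%), and the lost ones 52, or 25.6% (19.8% to 32.2%), against 23.0% and 26.7% over all genes. The intervals cover counting error only, since peaks of 1 library are not replicates. Both turnover shares at days 1 and 7 lay under those of all genes, and at day 28 they were close to them. Above the common floor the day 1 balance turned, with 47 gained and 80 lost peaks, so that gained peaks made up 31.1% of the day 1 peaks and lost ones 39.4% of the untreated peaks. All genes moved the same way under that floor, to 39.1% and 44.7%. Counted as merged regions, the 9 genes had 86 gained and 52 lost at day 1, and 40 and 42 at day 7. For day 28 these were 31 and 45, so the day 28 gains were fewer by that count. The merged shares gained and lost at day 1 were 42.2% and 30.6%, against 52.0% and 40.3% over all genes. For day 7 they were 23.8% and 24.7%, against 32.9% and 33.6%, and for day 28 19.9% and 26.5%, against 21.9% and 28.0%. By this count too, both shares lay under those of all genes at days 1 and 7 and were close to them at day 28.

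Of the 283 merged regions 103 were in all 4 lists, a share of 36.4% (30.8% to 42.3%) against 28.0% over all genes. Within 1 kb of a gene end 9 of 11 regions were in all 4 lists, against 60.5% over all genes, and the exceptions were the Ankrd1 promoter and a day 28 peak of fold 3.97 at Yap1. Inside the gene spans 56 of 176 regions were in all 4 lists, or 31.8% against 23.6% over all genes. At 1 to 10 kb outside it was 16 of 39, or 41.0% against 27%, and at 10 to 50 kb 22 of 57, or 38.6% against 25.3%. The members' share was above that of all genes in each of these classes, with 11 regions in the smallest. A further 58 regions were in the day 1 list alone, against 21.9% over all genes, and 28 in the untreated list alone, against 10.7%, which made 20.5% and 9.89% of the members' regions. Regions in the day 7 list alone numbered 9 and in the day 28 list alone 12, or 3.18% and 4.24%, against 4.3% and 5.23% over all genes. Those shared by days 1 and 7 but by no other list numbered 15, or 5.3%, against 8.6%. Those held by the untreated and day 28 lists but by neither list between them numbered 6, or 2.12% (0.782% to 4.56%), against 5.38%.

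The genes differed in how their counts moved. The target genes as a group had 16 merged regions untreated and then 31, 27 and 22 at days 1, 7 and 28, in 17, 34, 33 and 33 peaks. The co-activators had 31, 54, 33 and 31 merged regions in 38, 54, 39 and 35 peaks. The TEAD factors had 81, 65, 68 and 70 merged regions in 94, 75, 75 and 79 peaks, and the feedback regulators 42, 54, 40 and 33 in 54, 62, 52 and 49. In merged regions at day 28 the target genes were above their untreated number, though well below that of day 1. By the same count the co-activators were back at their untreated number and the other 2 groups were under theirs. In peaks the target genes stood at 33 at day 28, near the 34 of day 1.

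**Figure D1:**
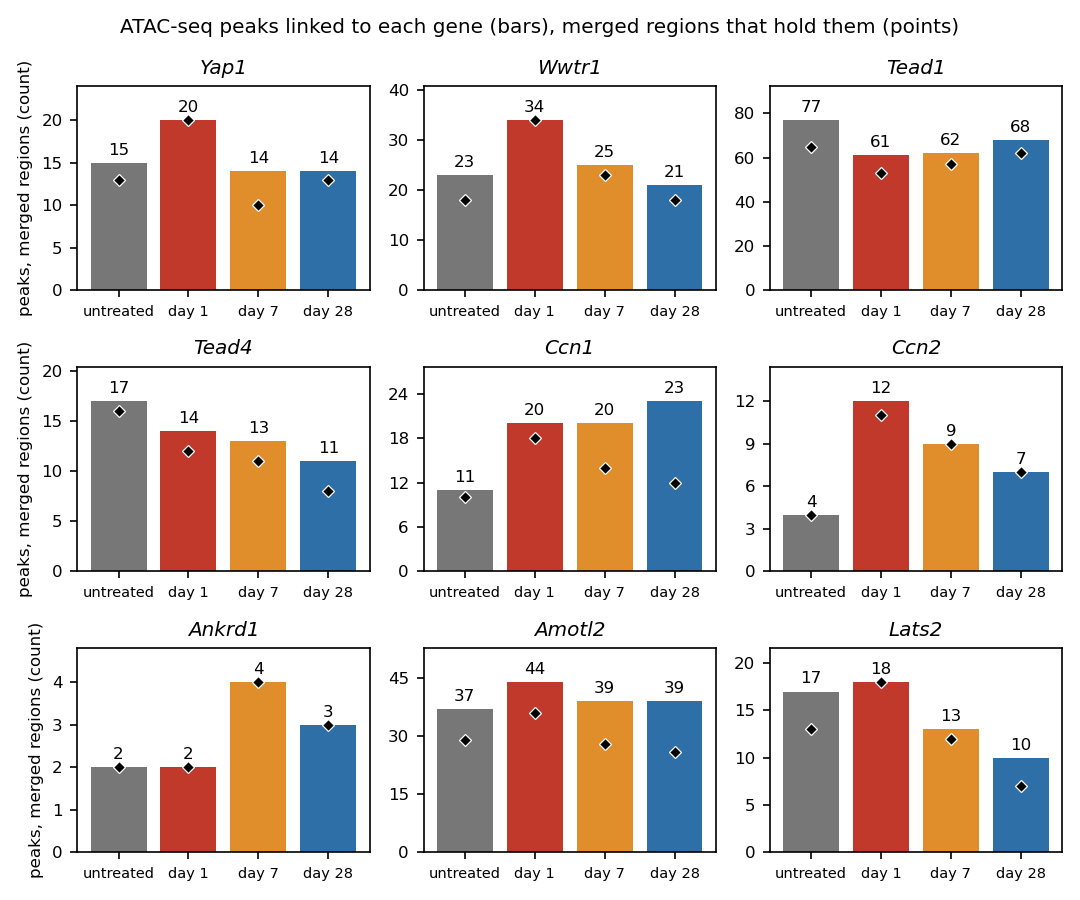
Number of peaks linked to each of the 9 genes (bars, with the number above) and of the merged regions that hold them (black diamonds) in the untreated list and at days 1, 7 and 28 (horizontal axis), 1 library per bar and no error bars. Ccn1 had 23 peaks at day 28 but in 12 merged regions, against 20 in 18 at day 1, Ccn2 had its highest count, 12 peaks, at day 1, and Tead4 had 17 peaks untreated and 11 at day 28.

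The target genes together gained 19 of 34 peaks at day 1, or 55.9% (37.9% to 72.8%), which is near the 49.9% of all genes. They lost 1 of 17 untreated peaks, or 5.88% (0.149% to 28.7%), under the 37.1% of all genes. The floor left 12 gained and 2 lost. At day 28 the target genes had gained 13 of 33 peaks, or 39.4% (22.9% to 57.9%), against 23.0% over all genes. Counted as merged regions the gains were 6, or 27.3%, near the 21.9% of all genes. They had lost 0 of 17 untreated peaks, which allows up to 19.5%, against 26.7% over all genes. Ccn1 encodes a secreted matricellular protein that binds integrins. Its span is chr3:145646971-145649985, and it had 10, 18, 14 and 12 merged regions in the untreated list and at days 1, 7 and 28. Its peaks numbered 11, 20, 20 and 23, because at day 28 the promoter region was split into 5 peaks, the flank downstream of the gene into 4 and the distal region described below into 3. It gained 8, 4 and 2 merged regions at the later times in turn, or 10, 8 and 9 peaks, and 0 of its 11 untreated peaks were lost at any time. The gained share of its peaks at day 1, 50.0%, was close to the 49.9% of all genes. A lost share of 0 of 11 still allows up to 28.5% by the exact interval. With the common floor Ccn1 had 6 gained and 1 lost at day 1. At its promoter, in chr3:145647037-145653998, the fold enrichment was 33.8 untreated and 70.1, 68.8 and 65.3 at days 1, 7 and 28, which are percentiles of 83.7, 88.7, 90.2 and 87.6 among the shared regions. The promoter was thus among the strong regions of every list.

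The strongest Ccn1 region of the day 1 list was distal. At chr3:145684376-145685770, upstream of the start by 35333 bp, the pileup was 42 untreated and 530, 154 and 48 at days 1, 7 and 28. The fold enrichment was 7.08, 83.7, 41.6 and 13.9, and the percentile 41.7, 92.7, 80.2 and 53.6. It stood above the promoter at day 1, and by day 28 it had returned most of the way to its untreated rank. A second upstream region, chr3:145676223-145677531, had fold enrichments of 4.12, 38.1, 22.0 and 6.53 and went the same way. On the downstream side chr3:145633815-145634824 did the opposite, with 19.3 untreated, 3.94 at day 1, 12.6 at day 7 and 34.6 at day 28. These last 2 regions were chosen after their values were seen. Immediately downstream of the gene, chr3:145643779-145647016 was absent untreated and had fold enrichments of 10.9, 16.4 and 4.54 at the later times.

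Ccn2 encodes connective tissue growth factor, another secreted matricellular protein with a known role in fibrosis. Its span is chr10:24595442-24598683, and its peak count was 4, 12, 9 and 7. It gained 8 of 12 at day 1, 5 of 9 at day 7 and 3 of 7 at day 28. These are 66.7% (34.9% to 90.1%), 55.6% (21.2% to 86.3%) and 42.9% (9.90% to 81.6%). The intervals cover the 49.9%, 33.9% and 23.0% of all genes. Ccn2 lost 0 of its 4 untreated peaks at each time, which still allows up to 60.2% by the exact interval. Above the common floor it had 5 gained and 0 lost at day 1. The region over the gene's lower end, chr10:24595166-24597595, had fold enrichments of 23.7, 65.2, 62.3 and 34.9. The strongest gained region, chr10:24580987-24581448, lies 14193 bp from the span. It was absent untreated, had 27.3 at day 1 and 12.6 at day 7, and was absent again at day 28. A weak region at chr10:24591768-24592066 was held by all 3 later lists, with 5.51, 4.03 and 4.54.

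Ankrd1 encodes an ankyrin repeat protein of the nucleus and the sarcomere that is used as a readout of YAP activity. It had 2, 2, 4 and 3 peaks around its span chr19:36111965-36119844. Its promoter, chr19:36119827-36120259, had no untreated peak. The pileup there was 69, 34 and 25 at days 1, 7 and 28, and the fold enrichment 11.0, 9.40 and 7.38, well above the lowest fold of these lists, which was 2.36, 2.95 and 2.84. On the scale of fold minus 1 over the list's median of it, the promoter stood at 0.602, 0.556 and 0.555, above the common floor in each of these single libraries. An upstream region at chr19:36129081-36130045, 9623 bp from the span, was in all 4 lists with fold enrichments of 6.43, 9.93, 13.7 and 11.1. The strongest Ankrd1 loss of day 1, chr19:36132918-36133386, had 3.79 untreated, no peak at day 1, and 5.64 and 5.96 at days 7 and 28.

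**Figure D2:**
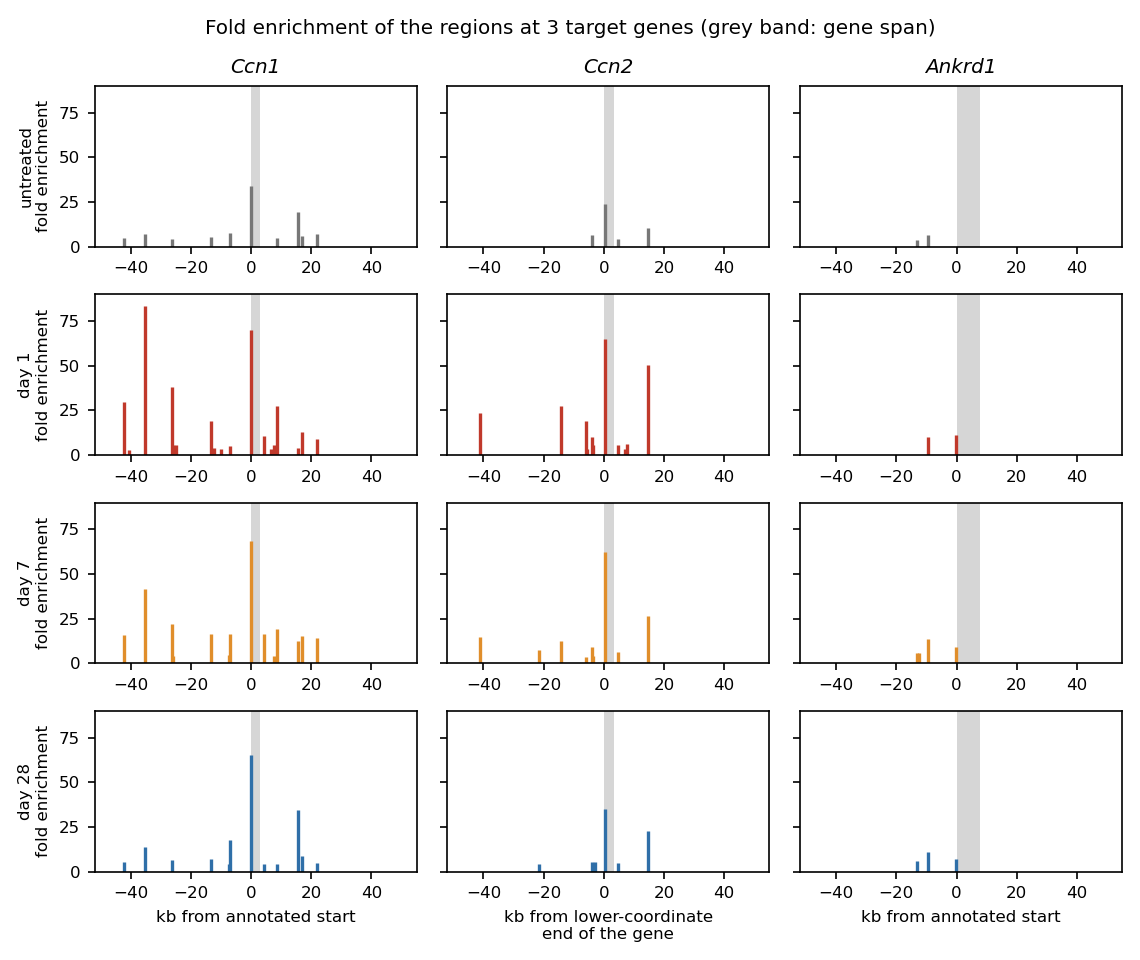
Fold enrichment at the summit (vertical axis, the authors' ratio, 1 vertical line per region) against distance in kb from the annotated start, or from the lower-coordinate end for Ccn2, whose strand was not in the table used. Rows are the 4 libraries and the grey band is the gene span. The Ccn1 line at 35333 bp upstream stands at 83.7 at day 1 against 7.08 untreated, and the Ankrd1 line at the start is present at days 1, 7 and 28.

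Fewer or more cells of a type and a change in accessibility per cell cannot be told apart in these bulk libraries. Markers of fibroblasts and stellate cells, in which Ccn1 and Ccn2 are also expressed, moved in the same direction as the target genes. Over the 10 genes of that list there were 114 peaks untreated and 214, 172 and 131 at days 1, 7 and 28. Of their day 1 peaks 67.3% were gained, and 5.26% of their untreated peaks were lost, against 58.0% and 9.65% above the common floor. All 10 genes gained more than they lost at days 1 and 7. In the untreated list 9 of the 10 had a peak at a gene end and Lum had no peak at all, whereas 10 of 10 had one at each later time. The part of such cells in the values at the target genes was not tested.

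The co-activators had 30 gained of 54 peaks at day 1, or 55.6% (41.4% to 69.1%), near the 49.9% of all genes, and 7 lost of 38, or 18.4% (7.74% to 34.3%), under the 37.1% of all genes. The floor left 12 gained and 9 lost. Wwtr1 encodes TAZ, and its span is chr3:57455644-57575910. It had 23, 34, 25 and 21 peaks, with 18 gained and 2 lost at day 1, and 5 gained and 5 lost at day 28. The day 1 shares of Wwtr1 were 52.9% (35.1% to 70.2%) gained and 8.70% (1.07% to 28.0%) lost. The day 28 shares were 23.8% and 21.7%, against 23.0% and 26.7% over all genes. The floor left Wwtr1 8 gained and 4 lost at day 1. The promoter region chr3:57573257-57577169 had fold enrichments of 45.1, 85.7, 83.5 and 81.2. Inside the gene, chr3:57550359-57551356 was the strongest day 1 gain, at 18.3, and had 7.25 at day 7 and no peak at day 28. Another region inside the gene, chr3:57501373-57502299, was present in all lists and ranked higher at day 1, with pileups of 34, 344, 58 and 22 and percentiles of 31.4, 81.8, 48.8 and 21.6. It was chosen after its values were seen. The strongest untreated Wwtr1 region without a day 1 peak, upstream at chr3:57583540-57584074, had 6.26 untreated and was back at days 7 and 28, with 7.52 and 12.2.

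Yap1, whose span is chr9:7931999-8004638, had 15, 20, 14 and 14 peaks. It gained 12 and lost 5 at day 1, or 60.0% (36.05% to 80.9%) and 33.3% (11.8% to 61.6%). Both intervals cover the shares of all genes, 49.9% and 37.1%. Above the common floor the balance of Yap1 was 4 gained and 5 lost, so its direction at day 1 depends on that scaling. The promoter region chr9:8002729-8005316 had fold enrichments of 47.3, 77.7, 89.5 and 98.2 and percentiles between 89.1 and 94.1. The strongest gain lay inside the gene at chr9:7950175-7950808, absent untreated, with 16.2, 7.25 and 5.11 at days 1, 7 and 28. The strongest loss, chr9:7981157-7981430, had 4.45 untreated and no later peak.

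The regions of the co-activators that all 4 lists held also moved in rank. Of these 21 regions, 11 stood at least 25 percentile points higher at day 1 than untreated and 0 stood as much lower. Most of the 21 stood under the 25th percentile untreated and could not have fallen by 25 points, so nothing is read from the 0. The same low start left them more room to rise. No regions matched for untreated rank were compared, so the 11 is a description and not a trait of these genes. Their median percentile went from 24.6 to 53.5 at day 1, then to 33.9 and 19.6. Over all 103 shared regions of the 9 genes, 23 stood at least 25 points higher at day 1 and 23 at least 25 points lower, that is 22.3% each, against 17.4% and 16.6% over all genes. At day 7 the counts were 11 and 13, against 9.74% and 11.6%. At day 28 they were 1 and 5, against 2.44% and 2.89%. By this measure the ranks at day 28 were close to those of the untreated list.

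**Figure D3:**
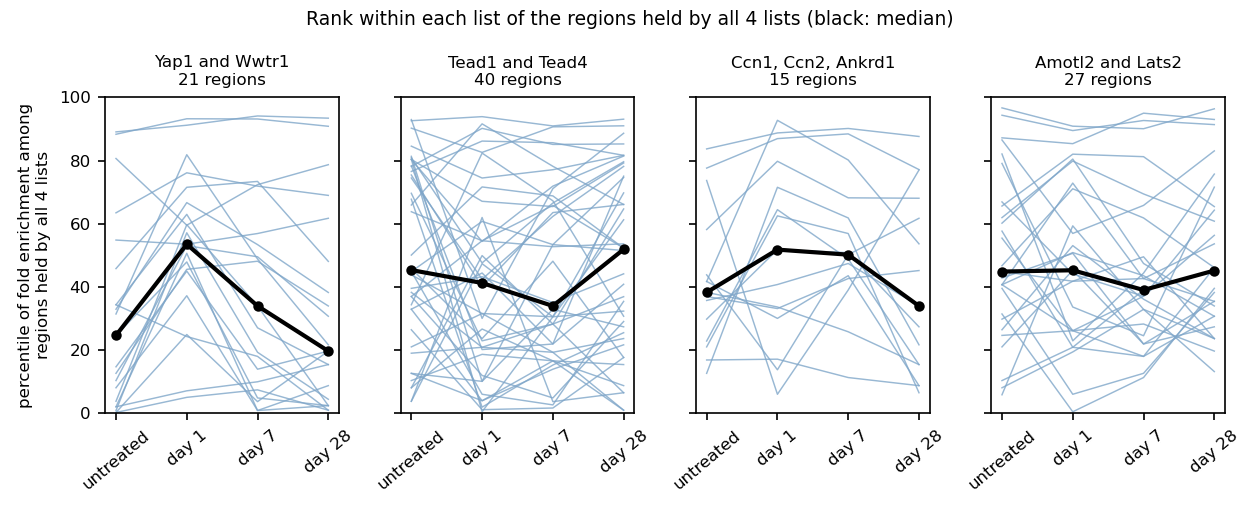
Percentile of fold enrichment (vertical axis) among the regions held by all 4 lists, for the untreated library and days 1, 7 and 28 (horizontal axis). Each thin line is 1 region and the black line is the median, in 4 panels by role. The median of Yap1 and Wwtr1 together went from 24.6 to 53.5 at day 1 and was 19.6 at day 28. At day 1, 5 Tead1 regions stood at least 25 points higher than untreated and 13 as much lower. For Tead4 these were 0 and 1.

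Tead1 encodes a TEA-domain factor that brings YAP and TAZ to DNA. With a span of chr7:112679356-112906784 it had the most peaks of the 9 genes, at 77, 61, 62 and 68. At day 1 it gained 20 of 61 peaks, or 32.8% (21.3% to 46.0%), against 49.9% over all genes. It lost 34 of 77 untreated peaks, or 44.2% (32.8% to 55.9%), an interval that covers the 37.1% of all genes. Above the common floor it gained 10 and lost 41. At day 28 it had 16 gained and 19 lost. Without Tead1 the other 8 genes had 76 gained of 164 day 1 peaks and 26 lost of 126 untreated peaks. These are 46.3% (38.5% to 54.3%) and 20.6% (13.9% to 28.75%). The gained interval covers the 49.9% of all genes, and the lost one lies under 37.1%. At day 7 the gained share of the other 8 genes was 28.5% (21.1% to 36.8%), and that interval covers the 33.9% of all genes. Tead1 thus held 34 of the 60 day 1 losses, and 77 of the 203 untreated peaks of the 9 genes.

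Single Tead1 regions went in opposite directions at day 1. Inside the gene, chr7:112825128-112827224 was its strongest untreated region, with a pileup of 377 untreated and 56, 108 and 244 later. The fold enrichment was 62.3, 8.98, 29.3 and 69.5, and the percentile 93.0, 30.0, 71.1 and 88.6. It ranked far lower at day 1 and stood near its untreated rank again by day 28. The strongest untreated region with no day 1 peak, chr7:112773594-112774441, did likewise, with 17.3, none, 6.72 and 19.3. Outside the gene, chr7:112662323-112664477 lies 16788 bp from the span and was the strongest Tead1 region of day 1, with 13.8, 79.4, 38.1 and 21.0. The region over the lower end of the gene, chr7:112678169-112680374, was strong in all lists at 51.2, 55.8, 70.9 and 82.3. Of the 32 Tead1 regions in all lists, 5 stood at least 25 percentile points higher at day 1 and 13 at least 25 points lower.

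Acinar markers moved in the direction of the lost Tead1 regions. The 8 acinar genes had 110 peaks untreated and 30, 74 and 107 later, with 83.6% of the untreated peaks lost at day 1, or 89.1% above the common floor, and 11.8% at day 28. Cel and Amy2b had no peak at all at day 1, and 4 of the 8 genes kept a peak at a gene end then, against 8 of 8 untreated. Other marker lists also lost larger shares at day 1 than the 37.1% of all genes. These were 50.0% for ductal, 55.4% for endothelial and 46.7% for leukocyte genes, beside 44.2% at Tead1. Endocrine genes were near all genes at 38.9%, and the fibroblast and stellate list was far under them at 5.26%. The share of acinar or any other cells in the losses at Tead1 was not tested.

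Tead4 encodes another TEA-domain factor and had 17, 14, 13 and 11 peaks around its span chr6:128227143-128300813. At day 1 it gained 3 and lost 6, and at day 28 it gained 0 of 11 and lost 8 of 17. That lost share of 47.1% has an interval from 23.0% to 72.2%, which covers the 26.7% of all genes. The day 1 shares were 21.4% (4.66% to 50.8%) gained and 35.3% (14.2% to 61.7%) lost, against 49.9% and 37.1% over all genes. The floor left Tead4 1 gained and 10 lost at day 1. Its strongest regions stayed: chr6:128200055-128201527, 26369 bp from the span, had fold enrichments of 60.5, 88.7, 72.3 and 95.7, and chr6:128299384-128301992 over the higher end of the gene had 35.6, 42.2, 36.5 and 45.1. The strongest loss, chr6:128225505-128225969, had 7.58 untreated and no later peak.

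Amotl2 encodes an angiomotin-like protein that holds YAP at cell junctions. It had 37, 44, 39 and 39 peaks around its span chr9:102717091-102733418, with 16 gained and 9 lost at day 1 and 7 gained and 8 lost at day 28. The day 1 shares were 36.4% (22.4% to 52.2%) gained and 24.3% (11.8% to 41.2%) lost, against 49.9% and 37.1% over all genes. At day 28 they were 17.95% and 21.6%, against 23.0% and 26.7%. Above the common floor the day 1 balance turned to 8 gained and 12 lost. The promoter region chr9:102716640-102719608 was the strongest region of the 9 genes at day 28, with fold enrichments of 86.7, 76.7, 68.5 and 129. A distal region at chr9:102779047-102780303, 46255 bp downstream, was nearly as strong, at 69.9, 72.2, 80.9 and 84.6. The strongest gain, chr9:102761161-102761649, was in the day 1 list alone at 12.9. The strongest loss, chr9:102771486-102771894, had 7.74 untreated, no day 1 peak, and 6.18 and 13.9 at days 7 and 28.

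Lats2 encodes the kinase that phosphorylates YAP and TAZ. Its span is chr14:57689662-57746212, and it had 17, 18, 13 and 10 peaks, with 8 gained and 3 lost at day 1 and 2 gained and 8 lost at day 28. Above the common floor it had 4 gained and 6 lost at day 1, so its day 1 direction also turned. The start of Lats2 overlaps the predicted gene Gm52140, and 17 of its peaks, in 8 merged regions, lie inside both spans and were counted for it. Counted for the shorter span instead, Lats2 had 4 gained and 3 lost at day 1, 2 and 5 at day 7, and 2 and 7 at day 28. One of them is the promoter region chr14:57745186-57746861, with fold enrichments of 42.0, 61.5, 96.2 and 95.1. The strongest gain, chr14:57718003-57718529, was in the day 1 list alone at 8.51, and the strongest loss, chr14:57710130-57710305, was in the untreated list alone at 4.78.

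Gained peaks were mostly weak. The 96 peaks gained at day 1 had a median fold enrichment of 4.175 and 14 of them reached 10, whereas the day 1 peaks that overlapped an untreated peak had a median of 11.3. Over all genes these medians were 4.41 and 11.8, and 15.35% of the peaks gained at day 1 reached 10. The 60 untreated peaks lost at day 1 had a median of 3.95, and those kept had 6.10, the same as over all genes. Of the 96 gained peaks 33 overlapped a day 7 peak and 18 a day 28 peak, or 34.4% and 18.8%, against 36.9% and 14.5% over all genes. Of the 60 lost peaks 22 overlapped a peak again at day 7 and 28 at day 28, or 36.7% and 46.7%, against 27.8% and 51.4%.

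Lasting gains were defined as day 28 peaks that overlapped no untreated peak and overlapped peaks at days 1 and 7. The 9 genes had 23 of them among 196 day 28 peaks, or 11.7% (7.59% to 17.1%), against 9.57% over all genes. Ccn1 had 7, Tead1 5, Wwtr1 4 and Amotl2 3. Yap1, Ccn2, Ankrd1 and Lats2 had 1 each and Tead4 had 0. Of the 23, 10 lay in merged regions that held an untreated peak elsewhere, so that they extend or flank a region that was already open. The other 13 lay in merged regions with no untreated peak. In all, 10 merged regions, or 3.53%, were absent untreated and present at all 3 later times, against 3.65% over all genes. They were spread over 8 of the 9 genes, all but Tead4, and 7 of them stood above the common floor in all 3 later lists.

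Apart from the Ankrd1 promoter, the flank of Ccn1, the Yap1 region and the weak Ccn2 region given above, these regions lay at Tead1, Wwtr1, Amotl2 and Lats2. At Tead1, chr7:112753114-112754027 had fold enrichments of 14.7, 9.67 and 4.83 at days 1, 7 and 28. At Lats2, chr14:57736999-57737762 had 4.57, 7.79 and 3.97. At Amotl2, chr9:102747674-102748188 had 4.57, 4.03 and 3.41. The remaining 3, under the floor in at least 1 later list, were chr3:57481227-57481531 and chr3:57566652-57567062 at Wwtr1 and chr7:112822908-112823208 at Tead1. Of all these regions the Ankrd1 promoter had the highest fold enrichment at day 28.

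The 50 kb limit cut through few regions. The outermost peaks inside it belonged to Amotl2, at 49544 bp in the day 7 list with a fold enrichment of 5.64 and at 49453 bp in the day 1 list with 8.82. The nearest peaks outside it lay by Ccn1, at 52993 bp in the day 1 list with 8.35 and at 53558 bp in the untreated list with 4.61.

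Other genes of the pathway were read beside the 9. The list of 17 upstream kinases and regulators had 274 peaks untreated and 360, 274 and 257 later. Of its day 1 peaks 205 were gained, or 56.9% against 49.9% over all genes, and 97 of its untreated peaks were lost, or 35.4% against 37.1%. Above the common floor the counts were 108 gained and 114 lost, so its balance turned as that of all genes did. Gains exceeded losses at 9 of the 17 genes at day 1, losses exceeded gains at 5, and 3 were equal. Map4k4, a kinase upstream of Lats1 and Lats2, had 42 of 69 day 1 peaks gained and 8 of 39 untreated peaks lost. For Frmd6, a scaffold of the pathway, these were 37 of 58 and 4 of 31. Wwc1, which encodes the scaffold KIBRA, went the other way, with 5 gained and 30 of 40 untreated peaks lost, and at day 28 it had 11 gained and 10 lost. Ptpn14, a phosphatase that binds YAP, had 15 of 34 day 1 peaks gained and 21 of 44 untreated peaks lost.

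Among the 4 other TEAD factors and co-factors, 31 peaks were gained and 23 lost at day 1, or 39.7% and 32.4%, both under the shares of all genes, and above the common floor 18 were gained and 32 lost. Vgll3, a TEAD co-factor, went from 2 peaks to 21 at day 1, 15 at day 7 and 8 at day 28, with 19 gained at day 1. Vgll4, which competes with YAP for TEAD, lost 16 of its 50 peaks at day 1, a share under the 37.1% of all genes. Tead2 and Tead3 had 3 and 16 peaks untreated and 3 and 13 at day 1.

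The list of 16 further YAP and TAZ target genes had 277 peaks untreated and 537, 380 and 257 later. At day 1, 359 of its peaks were gained, or 66.9%, and 46 of its untreated peaks were lost, or 16.6%, against 49.9% and 37.1% over all genes. The floor left 182 gained and 68 lost. Gains exceeded losses at 15 of the 16 genes at day 1 and at 13 at day 7, but at 6 at day 28, when 25.3% of its peaks were gained and 28.9% of its untreated peaks lost. Rbms3, an RNA-binding protein gene, contributed 122 of the day 1 gains, Asap1 54, Tgfb2, a TGF-beta ligand gene, 27, and Myof 21. Crim1 was the exception at day 1, with 11 gained and 14 lost. The gained share of this list at day 1 lay near the 67.3% of the fibroblast and stellate list and the 69.2% of 6 leukocyte marker genes. Its lost share lay between the 5.26% and the 46.7% of those lists. The part of either cell type was not tested here.

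**Figure D4:**
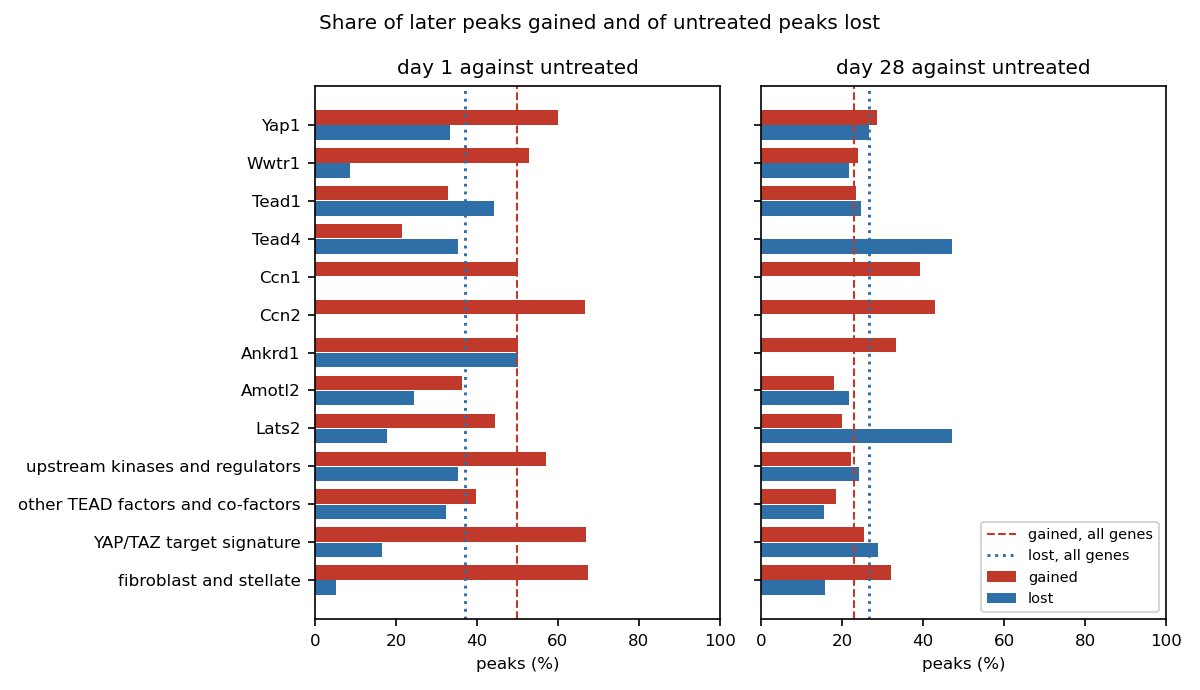
Share of later peaks gained (red) and of untreated peaks lost (blue), in % (horizontal axis), for the 9 genes, the pathway lists and the fibroblast and stellate list at day 1 (left) and day 28 (right). The lines mark all genes, at 49.9% and 37.1% at day 1 and at 23.0% and 26.7% at day 28. Each bar rests on 1 library per time point and has no error bar.

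The remaining marker lists at day 1 were as follows. The 6 ductal genes had 72 peaks untreated and 63 at day 1, with 36.5% gained and 50.0% lost. The 6 endothelial genes had 92 and 91 peaks, with 53.8% gained and 55.4% lost. The 6 leukocyte genes had 15 and 26 peaks, with 69.2% gained and 46.7% lost. Among them Adgre1 was at 0 in every list and Cd3e at 0 untreated and at day 1. The 6 endocrine genes had 18 and 20 peaks. Acinar and ductal markers were thus present in the untreated list, beside regions of endothelial and mesenchymal genes.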

How the data were processed

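ATAC-seq peak lists of 4 libraries were used, 1 per group, grouped by their titles; 3 samples were not analysed here. The tools that appear in the submitters' processing notes are Bowtie2 2.2.6, MACS2 2.1.0.20150731, cutadapt, SAMtools and deepTools, with the build GRCm38 (mm10), and no shift of reads to the cut site or other option is given in the sources used here. Each list was called on its own sample. In the deposited files the fold enrichment at a summit is the peak caller's ratio over a background that was the same for all peaks of a list. The −log10 q and −log10 p of a peak state the same enrichment, and the deposited score repeats the −log10 q times 10. The deposited summit offset gave positions. With that single background per list, and 1 added to pileup and background before taking the fold, 100% of pileups came out whole within 0.05. Total reads per library are not given, and the lowest pileups were 14, 14, 10 and 9 fragments (untreated, days 1, 7 and 28).

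Peaks on the 19 autosomes and X were linked to RefSeq gene spans of GRCm38.p6, which carry no exons, with Python 3.11.15, pandas 2.3.3 and numpy 2.4.6. A summit inside overlapping spans counted for each gene. Overlaps needed 1 bp. Counts were tested on simulated data and checked with bedtools 2.31.1. Intervals are exact (Clopper-Pearson, scipy 1.17.1) at 95%. No p-value of a difference could be computed from single libraries. All 9 members are named, each with its strongest region per list, its strongest day 1 gain and loss, and the 10 strongest lasting regions over all members. Members, gene lists and this rule were chosen with earlier results of these data known. The percentile measure, its 25-point limit and the regions said to be chosen after their values were seen came later still. Alternatives were another overlap rule, a 10 kb link, a −log10 q of at least 5, the common floor and, added after the data were seen, counting a tied summit for the shortest span and counting merged regions in place of peaks.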

Additional observations from a re-analysis of the deposited data

How the results depend on the processing

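The 7 counts over the 9 genes stayed within 1.5 times their reported values when a shared peak had to contain the summit, with a 10 kb link, and when tied summits went to the shortest span, an alternative chosen after seeing the data. Counting each merged region once, also chosen after seeing the data, gave 31 gains at day 28 in place of 47 and 10 lasting gains in place of 23, because several peaks can share a region. With a −log10 q of at least 5, gained peaks fell from 52 to 32 at day 7 and from 47 to 24 at day 28, and lasting gains from 23 to 13, by construction, since weaker peaks no longer count. Above the common floor the peaks gained at day 1 were 47 in place of 96, against 80 lost in place of 60, because 151 of the 225 day 1 peaks remain. Of 54 counts per gene, 33 stayed within 1.5 times under the stricter q, 41 above the floor, 44 with the 10 kb link, 46 as merged regions, 49 under the summit rule and 52 with the shortest span. Leaving out a replicate was not possible with 1 library per group. No paired analysis was possible because each group has 1 library and no test was run. Depth limits weak regions most: a region missing from a list may lie under its lowest pileup.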

Other observations

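The pooled presence and absence profile of the 283 regions over the 4 lists was compared with that of each of 2686 genes with at least 20 regions, by the total variation distance, which is 0 for equal profiles and 1 for profiles with nothing in common. The most alike genes were Ralgps1 at 0.101, Pald1 and Septin9 at 0.107, Ergic1 at 0.108 and Zbtb16 at 0.109, against a median of 0.318. Of the members themselves with enough regions, Amotl2 was nearest to the pooled profile at 0.164 and Tead1 followed at 0.171, while Tead4 was at 0.359. The pooled profile includes their own regions, and the values are descriptions of 4 libraries.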
